A study of Capra hircus with 9 samples.

Results

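The let-7 guide strands are the 8 mature miRNAs listed in the count table with a name that begins with chi-let-7 and ends in 5p, namely chi-let-7a-5p to chi-let-7g-5p and chi-let-7i-5p. The rule that defines them uses names and no measured value. The table lists 1359 miRNAs, and all 8 were among the 696 miRNAs that passed the filter on low counts. They were measured by small RNA sequencing of whole mammary gland tissue from Laoshan dairy goats of the third parity, with an average age of 4 years. Goats in late lactation (LL) had given birth 240 days before sampling, those in the dry period (DP) 300 days before, and those in late gestation (LG) had been mated 140 days before. Each stage had 3 goats and 1 library per goat, the tissue was taken after slaughter, and the labels name no treatment. Each goat was sampled at 1 stage, so differences between stages are differences between animals. The study's early and peak lactation goats were not analysed here.

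let-7 is one of the oldest known miRNA families. Its precursors are blocked by the RNA-binding protein LIN28 in stem cells and early embryos and are processed as cells differentiate, so mature let-7 is abundant in most adult tissues. The guide strand, which in this family comes from the 5p arm, is loaded into Argonaute and pairs through its seed with messages such as those of HMGA2, RAS genes, MYC and LIN28 itself, and the family is known for restraining growth. In the mammary epithelium, low let-7 is known as a feature of self-renewing progenitor cells. The guides share their seed and differ from each other at few bases, so reads that the authors' counting could not place uniquely may have been divided among them. The levels of single members are uncertain to that extent, and the family sum is less so.

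In the goat genome assembly ARS1.2, the annotated genes that carry the names of the 8 members lie at 6 places. Further copies that could give the same mature strand were not looked for, so the level or strand ratio of a member may come from several genes. MIRLET7A (chr5:115353166-115353271) and MIRLET7B (chr5:115353949-115354045) are neighbours, with 677 bases between their precursors. MIRLET7F (chr8:85207848-85207957) and MIRLET7D (chr8:85210061-85210165) form the other pair of let-7 genes, 2103 bases apart. MIRLET7C (chr1:19042327-19042434) lies within the long non-coding RNA gene LOC102176916, 644 bases from MIR99A and 50464 bases from MIR125B. MIRLET7E (chr18:58705096-58705204) lies 85 bases from MIR99B. MIRLET7G (chr22:48724027-48724133) lies within the span of the protein-coding gene WDR82. MIRLET7I (chr5:50277066-50277173) stands alone, since the nearest other annotated miRNA gene is 6112465 bases away.

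The libraries held between 13672653 and 34378995 counts, and the members between 3220 and 1449937 counts each. The widest 95% Wilson interval of a member or of the family sum as a share of a library was 0.0486 percentage points, which covers counting error only. Markers of the cell types of the gland moved between stages as well. The summed level of 8 epithelial miRNAs (the miR-200 and miR-183 clusters) ranged from 35325 to 43018 CPM (counts relative to the size of the library) in LL, from 14060 to 22385 in DP and from 34932 to 38642 in LG, and 5 of the 8, all of the miR-200 family, were lower in DP than in each other stage (edgeR, adjusted p under 0.05). chi-miR-183 went the other way, at 1.18 in DP vs. LL (adjusted p = 0.0441, edgeR). The sum of 3 immune miRNAs ranged from 581 to 740.4 CPM in LL, from 767 to 1934.6 in DP and from 243 to 360.1 in LG, and that of 5 muscle miRNAs from 720.3 to 932, from 971 to 3444 and from 419 to 529.8 CPM. Of 5 stromal miRNAs, 3 (both chi-miR-199a arms and chi-miR-214-3p) were higher in DP than in each other stage and 0 lower, while their sum overlapped between DP and the other stages. Beside these calls, 23.7% of all tested miRNAs were higher in DP vs. LG and 17.2% in DP vs. LL. The shares lower in DP on this scale are not given here, so the epithelial calls cannot be set against them. The sum of 3 blood miRNAs overlapped as well, that of endothelial markers (2 miRNAs) was above LG and overlapped LL, and no marker in the table was at 0 everywhere. In bulk tissue, fewer cells of a type and less RNA per cell cannot be told apart, and the part of these shifts in the let-7 values below was not tested.

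The family as a whole took a larger part of the counts in the dry period. The 8 guides together held 8.67%, 11.3% and 7.93% of all miRNA counts in the LL libraries, 30.0%, 18.1% and 17.8% in DP and 11.8%, 11.8% and 10.8% in LG. Every DP library was above every library of both other stages, and replicate 1 stood well above the other DP libraries. The mean share was 9.30% ± 1.78 (SD, n = 3) in LL, 22.0% ± 6.96 in DP and 11.5% ± 0.562 in LG, which made the DP mean 2.37 times that of LL and 1.92 times that of LG. Without DP replicate 1, these ratios were 1.93 and 1.57. The sum over members was described only and not tested.

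This larger share depended on which counts formed the total. chi-miR-148a-3p, the most abundant miRNA of lactating mammary tissue and known for its role in milk fat synthesis, held 53.6% ± 5.51 of the counts in LL, 9.61% ± 1.07 in DP and 42.5% ± 2.74 in LG (SD, n = 3). When it was left out of the total, the family held 21.4%, 21.9% and 16.9% of the remaining counts in LL, 33.7%, 20.0% and 19.6% in DP and 20.8%, 21.3% and 17.9% in LG. The 3 stages then overlapped, and DP replicate 1 alone lay above the range of the other stages. The means were 20.1% ± 2.76, 24.4% ± 8.04 and 20.0% ± 1.87 (SD, n = 3), so that the DP to LL ratio fell to 1.22 and the DP to LG ratio to 1.22. The LL to LG ratio was 0.811 with chi-miR-148a-3p in the total and 1.00 without it. Among the counts of miRNAs other than chi-miR-148a-3p, the let-7 guides thus took between 16.9% and 21.9% of the library in 8 of the 9 goats.

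**Figure D1:**
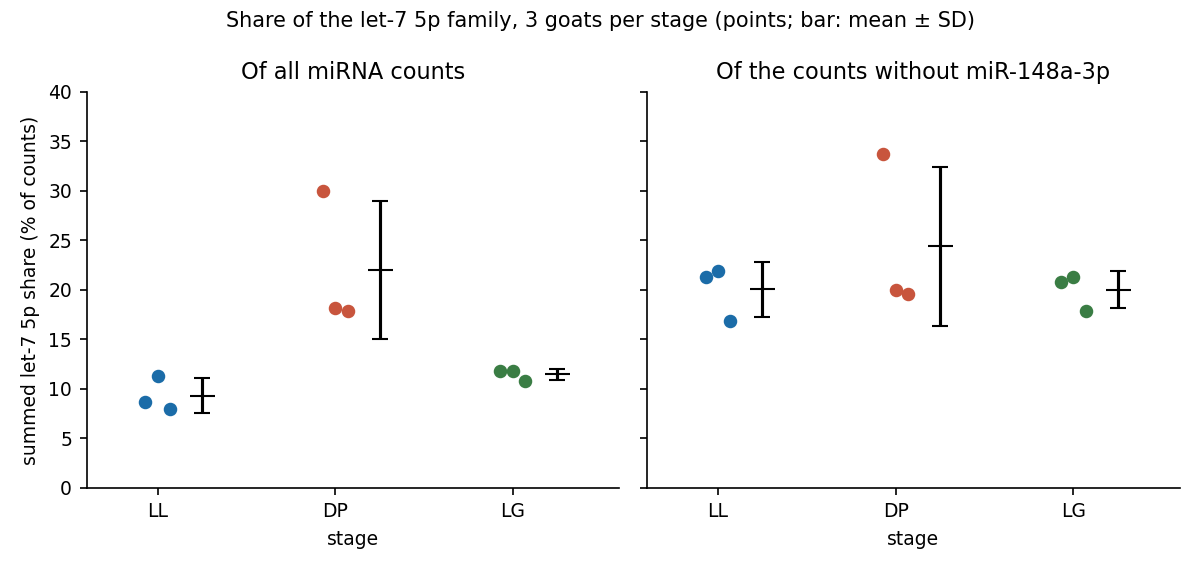
Summed share of the 8 let-7 5p guides in each library (points, 3 goats per stage) as a percentage of all miRNA counts (left) and of the counts without chi-miR-148a-3p (right), with the stage mean and SD beside the points. On the left every DP library is above all others (17.8% to 30.0% against 7.93% to 11.8%), and on the right the stages overlap except for DP replicate 1 at 33.7%.

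The order of abundance among the 8 guides was nearly the same at each stage. chi-let-7i-5p, chi-let-7f-5p, chi-let-7g-5p and chi-let-7a-5p together made up between 85.6% and 92.9% of the let-7 5p counts of a library. chi-let-7i-5p was the first member in LL (37.9% ± 5.30 of the family) and in DP (34.2% ± 2.12), and chi-let-7f-5p was first in LG (30.0% ± 0.607, SD, n = 3). chi-let-7b-5p and then chi-let-7c-5p followed, and chi-let-7e-5p and chi-let-7d-5p closed the order, each below 1% of the family in every library. The ranges of neighbours in the order overlapped for chi-let-7f-5p and chi-let-7g-5p in LL, and for chi-let-7i-5p and chi-let-7g-5p, and chi-let-7e-5p and chi-let-7d-5p, in LG. All other neighbours in the order were apart in the libraries of their stage. Among all miRNAs of a library, chi-let-7i-5p ranked between 3 and 9, chi-let-7f-5p between 6 and 9, and chi-let-7d-5p between 73 and 106. The most abundant member exceeded the least abundant one by 107-fold to 199-fold in LL, 82.3-fold to 146-fold in DP and 62.4-fold to 75.1-fold in LG.

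The members were next compared between stages on CPM scaled by TMM, a scaling that sets aside the most extreme miRNAs of each library. The tests are edgeR's quasi-likelihood tests in 1 fit of the 9 libraries, with Benjamini-Hochberg adjustment over the 696 miRNAs. Members are called differentially expressed where the adjusted p was under 0.05 and the log2 fold change beyond 1 in either direction. On this scale every DP library was above every LL library and every LG library for each of the 8 members, against 27.7% of all tested miRNAs for DP above LG and 21.0% for DP above LL. Levels by library are given first.

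chi-let-7a-5p, often used to stand for the whole family, was at 8944, 11823 and 10521 CPM in LL, 28232, 25801 and 19314 in DP and 11178, 11116 and 10703 in LG. Its neighbour chi-let-7b-5p was at 5507, 6219 and 6719 CPM in LL, 19942, 15978 and 10384 in DP and 5777, 5928 and 5887 in LG. LL and LG interleaved for both, while the DP libraries were all higher and more spread. Their counts moved together, with a Pearson r of 0.98 between their log2 CPM over the 9 libraries, the highest of the 28 pairs of members. The b to a ratio was 0.593 ± 0.0595 in LL, 0.621 ± 0.0844 in DP and 0.533 ± 0.0166 in LG (SD, n = 3), and the stages overlapped.

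chi-let-7c-5p, from the miR-99a and miR-125b cluster, was at 1982, 2629 and 3136 CPM in LL, 14873, 10028 and 6324 in DP and 3582, 3289.9 and 3446 in LG. Replicate 1 was the highest of its DP libraries, and its LL libraries were all below those of LG. chi-let-7e-5p, from the miR-99b cluster, was at 479.5, 484 and 625 CPM in LL, 1433, 1267 and 1263 in DP and 519.9, 484 and 495 in LG. Its DP libraries lay close together, at 1321 ± 97.2 CPM (SD, n = 3).

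chi-let-7d-5p was the least abundant, at 253, 351 and 323 CPM in LL, 625, 753 and 539.99 in DP and 440.5, 389 and 414 in LG. For this guide, replicate 2 rather than replicate 1 was the highest of the DP libraries, and LL was below LG throughout. chi-let-7f-5p, its neighbour in the genome, was at 24279.6, 28436 and 25093 CPM in LL, 55978, 42605 and 41661 in DP and 30735, 29246 and 25832 in LG. The f to d ratio ranged from 77.8 to 96.1 in LL, from 56.6 to 89.5 in DP and from 62.4 to 75.1 in LG, so LL was above LG and DP overlapped both.

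chi-let-7g-5p was at 24586, 26593 and 24539 CPM in LL, 45694, 36547 and 32807 in DP and 23431, 21959 and 18384 in LG. chi-let-7i-5p was at 50317, 46341 and 34394 CPM in LL, 91009.7, 62004 and 62149.8 in DP and 27147, 26892 and 19117 in LG. On this scale both were higher in every LL library than in any LG library, as were 31.0% of all tested miRNAs, and for chi-let-7i-5p this gap was the wider. chi-let-7c-5p and chi-let-7d-5p were lower in every LL library, as were 17.4%. For chi-let-7i-5p, DP replicate 1 lay far above DP replicates 2 and 3, which were alike.

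**Figure D2:**
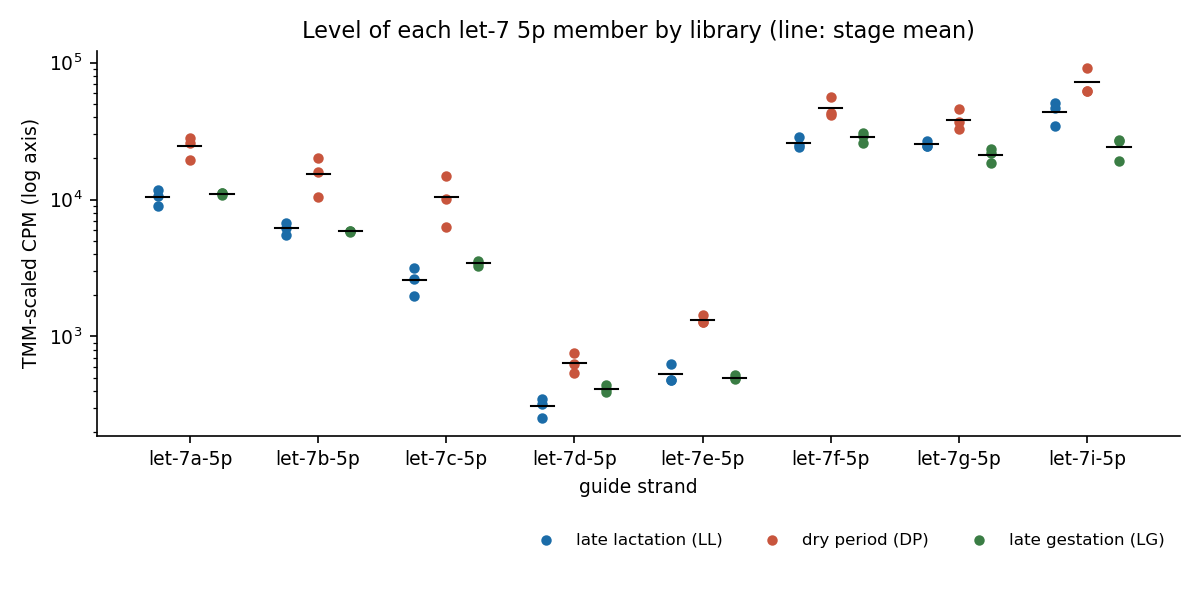
TMM-scaled CPM (log axis) of each let-7 5p guide in the 9 libraries, by stage, with a line at the stage mean. For every guide the 3 DP points lie above all LL and LG points, and chi-let-7i-5p is the guide whose LL points (34394 to 50317) lie farthest above its LG points (19117 to 27147).

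In DP vs. LG, 5 members were differentially expressed, all higher in DP, where 21.6% of all tested miRNAs were. The log2 fold change was 1.60 for chi-let-7c-5p (SE 0.30, adjusted p = 0.00240, edgeR) and 1.56 for chi-let-7i-5p (SE 0.25, adjusted p = 0.000976). The values were 1.40 (SE 0.20, adjusted p = 0.000628) for chi-let-7e-5p, 1.40 (SE 0.24, adjusted p = 0.00155) for chi-let-7b-5p and 1.15 (SE 0.21, adjusted p = 0.00181) for chi-let-7a-5p. With no limit on the fold change, 8 members were higher in DP, against 23.7% of all tested miRNAs. The number of differentially expressed members was 4 with upper quartile or library size scaling, DESeq2 or another filter, and chi-let-7a-5p, near the fold limit, was called in 5 of 18 alternative settings. The members under the fold limit had marginal calls. chi-let-7d-5p (0.63, SE 0.22, adjusted p = 0.0483) was past the threshold in 0 of these 18 settings, chi-let-7f-5p (0.71, SE 0.19, adjusted p = 0.0161) in 4 and chi-let-7g-5p (0.85, SE 0.20, adjusted p = 0.00750) in 11. Without DP replicate 1, 3 members were differentially expressed (chi-let-7c-5p at 1.06, chi-let-7e-5p at 1.15 and chi-let-7i-5p at 1.16).

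In DP vs. LL, 5 members were again differentially expressed, all higher in DP, where 15.1% of all tested miRNAs were. chi-let-7c-5p rose most, by 2.01 on the log2 scale (SE 0.31, adjusted p = 0.00105, edgeR). chi-let-7b-5p followed at 1.33 (SE 0.24, adjusted p = 0.00272), chi-let-7e-5p at 1.32 (SE 0.20, adjusted p = 0.00105), chi-let-7a-5p at 1.23 (SE 0.21, adjusted p = 0.00185) and chi-let-7d-5p at 1.05 (SE 0.22, adjusted p = 0.00576). With no limit on the fold change, 8 members were higher in DP, against 17.2% of all tested miRNAs. chi-let-7f-5p was at 0.85 (SE 0.19, adjusted p = 0.00854). chi-let-7d-5p, near the fold limit, was differentially expressed in 11 of 18 alternative settings, and the count of members was 4 with another filter or only the 2 stages in the fit and 7 with library size only. Here chi-let-7i-5p and chi-let-7g-5p were the marginal ones, since chi-let-7i-5p (0.72, SE 0.24, adjusted p = 0.0479) was past the threshold in 3 of 18 alternative settings and chi-let-7g-5p (0.60, SE 0.20, adjusted p = 0.0411) in 7. chi-let-7c-5p and chi-let-7e-5p were past it in all 18. Without DP replicate 1, 2 members were differentially expressed (chi-let-7c-5p at 1.55 and chi-let-7e-5p at 1.14).

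In LL vs. LG, 1 member had an adjusted p under 0.05 and none reached the limit on the fold change. chi-let-7i-5p was higher in LL by 0.84 on the log2 scale (SE 0.24, adjusted p = 0.0445, edgeR), where 9.77% of all tested miRNAs were higher and 4.89% lower. This call was lost when any 1 of 8 libraries was left out, was kept without DP replicate 1, and held in 2 of 18 alternative settings in all. chi-let-7d-5p, lower in LL, was past the threshold in 4 of the 18. The other members had log2 fold changes between −0.43 (chi-let-7d-5p, SE 0.22, adjusted p = 0.211) and 0.25 (chi-let-7g-5p, SE 0.20, adjusted p = 0.428), none past the threshold. The signs of the smallest changes rested on the setting, since the positive sign was kept in 1 of 18 alternatives by chi-let-7b-5p (0.07), in 3 by chi-let-7e-5p (0.08) and in 13 by chi-let-7g-5p. Under library size scaling they were at −0.51, −0.51 and −0.32. The 2 comparisons with DP share the DP libraries, so the higher levels in them are not independent of each other.

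The size of the DP rise rested on the scaling. In both comparisons with DP, all 8 members lay above the median of the tested miRNAs under both scalings below. With TMM, the median of the 8 members was 1.27 in DP vs. LG on the log2 scale, beside 0.18 over all 696 miRNAs. In DP vs. LL these medians were 1.14 and 0.12, and in LL vs. LG −0.00 and 0.17. When each library was scaled to its total without chi-miR-148a-3p, the medians of the 785 miRNAs that passed the filter on this total moved to −0.66, −0.51 and −0.10 in the same order. Under this scaling no member passed the threshold in DP vs. LG, where 7.01% of the 785 miRNAs were higher and 27.6% lower in DP. Values ran from −0.25 (chi-let-7d-5p, SE 0.21, adjusted p = 0.379, edgeR) to 0.77 (chi-let-7c-5p, SE 0.32, adjusted p = 0.0835). chi-let-7d-5p and chi-let-7f-5p (−0.14) turned to lower in DP, as the median of all miRNAs fell from 0.18 to −0.66. In DP vs. LL, chi-let-7c-5p (1.46, SE 0.33, adjusted p = 0.00808) and chi-let-7e-5p (0.74, SE 0.21, adjusted p = 0.0237) remained higher in DP, where 5.10% of the 785 miRNAs were higher and 23.4% lower. chi-let-7a-5p (0.64, SE 0.22, adjusted p = 0.0505) and chi-let-7b-5p (0.76, SE 0.26, adjusted p = 0.0534) missed the threshold narrowly, and chi-let-7g-5p was at 0.02 (SE 0.22).

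**Figure D3:**
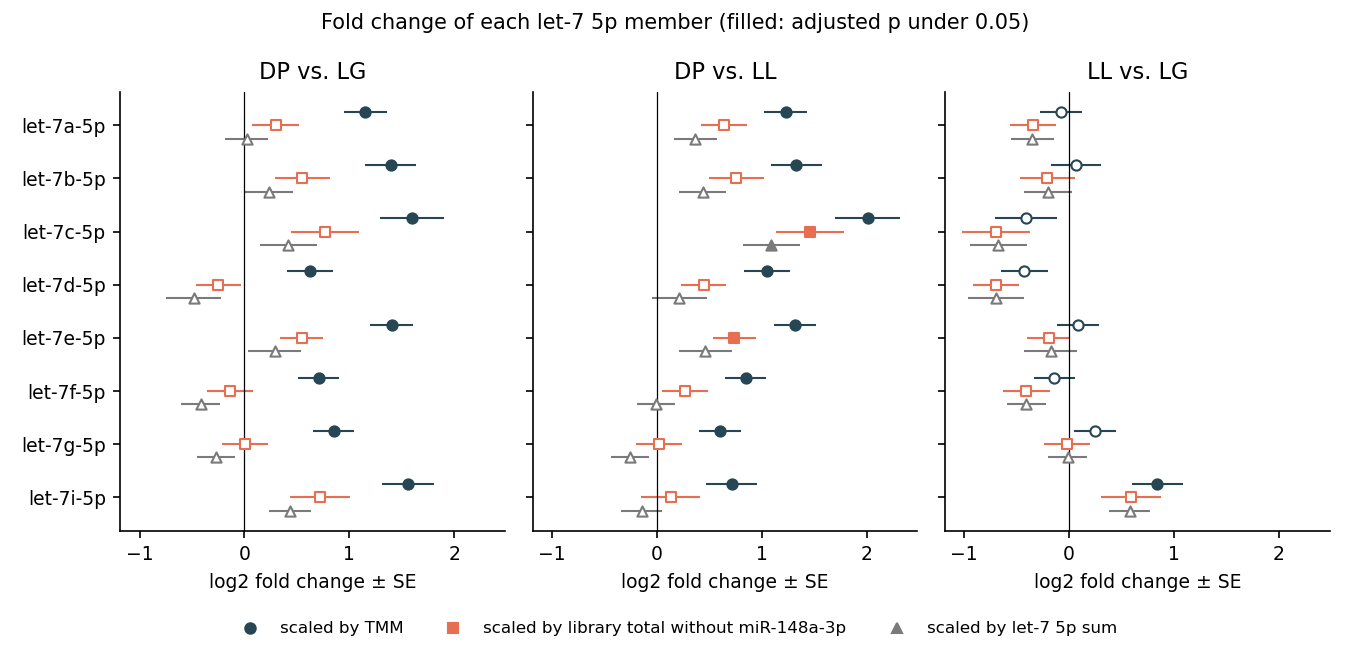
Log2 fold change (x axis, with SE) of each let-7 5p guide in the 3 comparisons, scaled by TMM (circles), by the library total without chi-miR-148a-3p (squares) and by the summed let-7 5p counts (triangles); filled symbols have an adjusted p under 0.05. All TMM values of both DP comparisons are filled and above 0, the squares are filled for chi-let-7c-5p and chi-let-7e-5p in DP vs. LL alone, and 1 triangle, chi-let-7c-5p in DP vs. LL, is filled.

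The members' shares of all counts showed the same dependence. As a percentage of all counts, the DP libraries were above those of LG for 8 members (23.0% of all tested miRNAs) and above those of LL for 8 members (31.8%). Without chi-miR-148a-3p in the total, they were above LG for 2 members (10.9%), below LG for 1 (39.4%) and overlapping for 5. The 2 higher members were chi-let-7e-5p, at 0.187%, 0.130% and 0.142% in DP against 0.105%, 0.104% and 0.105% in LG, and chi-let-7i-5p, at 11.9%, 6.35% and 6.97% against 5.50%, 5.77% and 4.05%. The lower member was chi-let-7d-5p, at 0.0817%, 0.0771% and 0.0605% in DP against 0.0893%, 0.0835% and 0.0878% in LG. Against LL, the DP libraries were above for 4 members (8.49%), namely chi-let-7a-5p, chi-let-7b-5p, chi-let-7c-5p and chi-let-7e-5p. chi-let-7c-5p was at 1.94%, 1.03% and 0.709% of these counts in DP and at 0.364%, 0.469% and 0.503% in LL. For 6 members the LL libraries were below those of LG (26.9%).

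Within the family, the balance between members was compared by scaling each library to its own let-7 5p sum. The fold changes on this scale depend neither on chi-miR-148a-3p nor on the rest of the library. The adjusted p also rests on the other tested miRNAs, through the shared estimate of the spread and the adjustment. Such shares add up to the whole family, so a rise of 1 member lowers the others. In DP vs. LL, chi-let-7c-5p was the only member past the threshold. It made up 1.70%, 2.14% and 2.98% of the family in LL and 5.77%, 5.14% and 3.63% in DP, a difference of 1.09 on the log2 scale (SE 0.27, adjusted p = 0.0113, edgeR). Of all tested miRNAs, 2.73% were higher in DP on this scale and 30.0% lower. The call of chi-let-7c-5p was lost without LL replicate 1 (0.92, adjusted p = 0.0530) and kept in 14 of 15 alternative settings. chi-let-7g-5p went from 21.1%, 21.6% and 23.3% of the family in LL to 17.7%, 18.7% and 18.8% in DP without overlap, at −0.26 (SE 0.18, adjusted p = 0.291). chi-let-7a-5p rose without overlap, from 7.69%, 9.62% and 9.99% in LL to 11.0%, 13.2% and 11.1% in DP. It was at 0.37 (SE 0.21, adjusted p = 0.188, edgeR). The share of all tested miRNAs without overlap on this scale is not given here.

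The other comparisons gave no member past the threshold within the family, where 5.32% of all tested miRNAs were higher and 41.4% lower in DP vs. LG, and 6.47% higher and 7.33% lower in LL vs. LG. In LL vs. LG, chi-let-7d-5p was at −0.70 (SE 0.27, adjusted p = 0.106, edgeR) and chi-let-7c-5p at −0.67 (SE 0.27, adjusted p = 0.129), and in DP vs. LG chi-let-7d-5p was at −0.48 (SE 0.26, adjusted p = 0.145). The shares of the abundant chi-let-7f-5p and chi-let-7i-5p are given by library, though neither passed the test. chi-let-7f-5p made up 29.9%, 29.5% and 30.7% of the family in LG, above the 20.9%, 23.1% and 23.8% in LL and the 21.7%, 21.9% and 23.9% in DP. chi-let-7i-5p made up 26.4%, 27.1% and 22.7% in LG, below the 43.2%, 37.7% and 32.6% in LL and the 35.3%, 31.8% and 35.6% in DP. In DP vs. LG the log2 fold changes were −0.42 for chi-let-7f-5p (SE 0.18, adjusted p = 0.0823, edgeR) and 0.43 for chi-let-7i-5p (SE 0.20, adjusted p = 0.0931). In LL vs. LG chi-let-7f-5p was at −0.41 (SE 0.18, adjusted p = 0.172, edgeR) and chi-let-7i-5p at 0.58 (SE 0.20, adjusted p = 0.0760). Because chi-let-7i-5p is itself a large part of the sum, leaving it out of the scaling raised its values to 0.61 (adjusted p = 0.0413) in DP vs. LG and to 0.86 (adjusted p = 0.0243) in LL vs. LG, both past the threshold. The same change brought chi-let-7f-5p in DP vs. LG from −0.42 to −0.23 (adjusted p = 0.280, edgeR) and in LL vs. LG from −0.41 to −0.14 (adjusted p = 0.653).

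**Figure D4:**
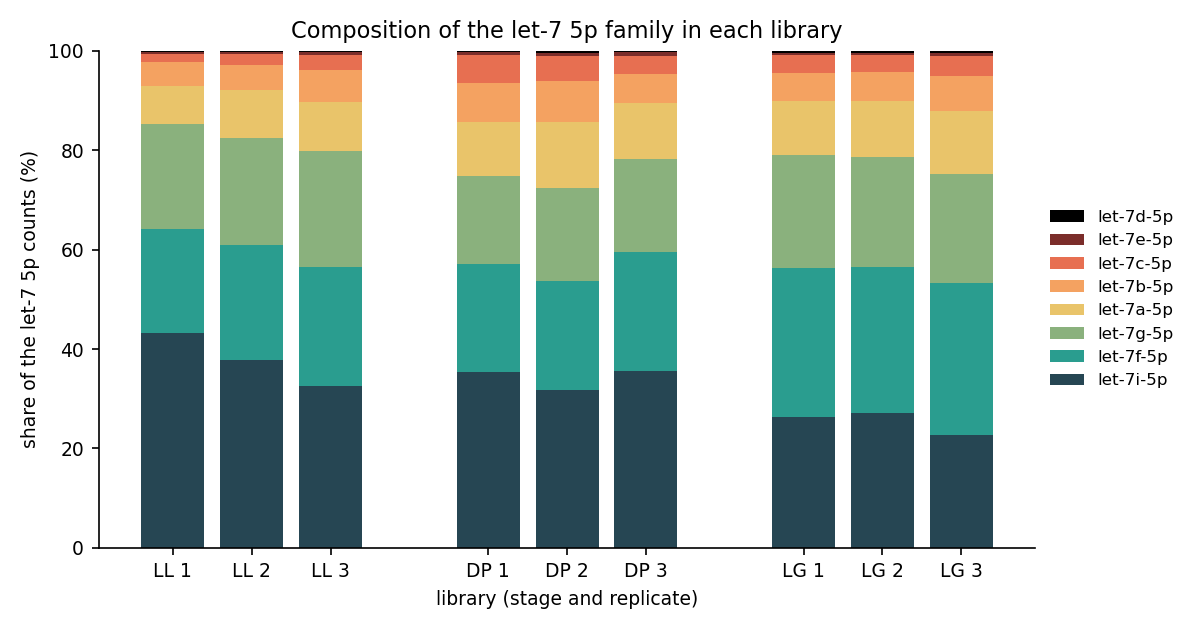
Share of each let-7 5p guide in the summed let-7 5p counts of each library (stacked bars, percent), with 3 libraries per stage. chi-let-7i-5p at the base takes 22.7% to 27.1% in LG and 31.8% to 43.2% elsewhere, chi-let-7f-5p above it is widest in LG, and the band of chi-let-7c-5p is wider in DP (3.63% to 5.77%) than in LL (1.70% to 2.98%).

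Across the 9 libraries, which share their depth and scaling between members, the log2 CPM of the 28 member pairs had Pearson r values from 0.44 (chi-let-7d-5p with chi-let-7i-5p) to 0.98. As log2 shares of the family, chi-let-7d-5p and chi-let-7i-5p had an r of −0.94 and chi-let-7f-5p and chi-let-7i-5p one of −0.90, while chi-let-7b-5p and chi-let-7c-5p had one of 0.93. The known miRNAs most like the family sum in log2 CPM, among 218 with a mean of at least 10 CPM, were chi-miR-222-3p (r = 0.98), chi-miR-221-5p (0.97), chi-miR-196a (0.96), chi-miR-28-3p (0.95) and chi-miR-221-3p (0.95). Of these, chi-miR-222-3p was at 123 ± 3.19 CPM in LL, 331 ± 160.1 in DP and 99.96 ± 22.6 in LG (SD, n = 3). These correlations are descriptions over 9 libraries that carry the stage difference.

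Each let-7 precursor also gives a passenger strand from its 3p arm, which is mostly degraded once the guide is loaded, and the counts of both strands come from the same library, so their ratio needs no scaling. The 5p strand was the more abundant in every library for all 8 precursors, from 5.29-fold for let-7d in an LG library to 145597-fold for let-7g in a DP library. The ratio was higher in every DP library than in every LG library for 6 precursors, where 26.0% of 131 tested 5p strands with a counted 3p partner were, and higher than in every LL library for 6, where 26.7% were. For 3 precursors (let-7a, let-7b and let-7f), LL was below LG (16.8%).

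For let-7a, the ratio was 57.8, 61.1 and 69.4 in LL, 191, 291 and 166 in DP and 95.6, 88.3 and 110.4 in LG. For let-7i it was 7820, 8769 and 6372 in LL, 38156, 19842 and 18273 in DP and 9771, 8962 and 5985 in LG. The 3p counts behind the let-7i ratios were small, at 82, 80 and 100 in LL, 38, 68 and 78 in DP and 81, 76 and 141 in LG. let-7d, whose 3p strand is known to be comparatively abundant, had by far the lowest ratio, 7.95, 7.90 and 7.02 in LL, 15.5, 11.2 and 12.3 in DP and 7.08, 6.59 and 5.29 in LG.

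let-7e and let-7g were the precursors whose stages overlapped in both comparisons with DP. For let-7e the ratio was 109, 100.3 and 111 in LL, 51.2, 106 and 121 in DP and 95.3, 101 and 89.6 in LG. DP replicate 1, with 446 counts of let-7e-3p, had the lowest ratio of all 9 libraries. For let-7g the 3p strand had between 5 and 44 counts per library, too few to place its ratio, which ranged from 18442 to 145597. No test was made on these ratios.

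**Figure D5:**
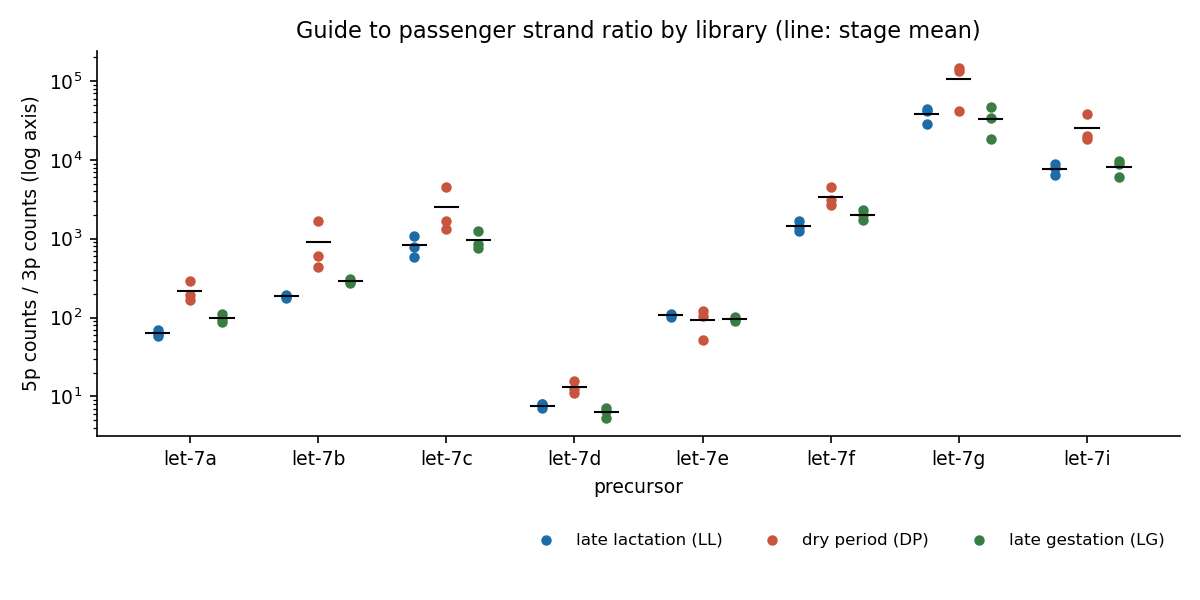
Ratio of 5p to 3p counts (log axis) for each let-7 precursor in the 9 libraries, by stage, with a line at the stage mean. The DP points lie above all others for let-7a, b, c, d, f and i, and overlap them for let-7e (51.2 to 121 in DP) and let-7g (41800 to 145597).

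Relatives of the members and miRNAs known to be encoded beside let-7 genes in mammals were also compared. chi-miR-98-5p is a let-7 family member by its seed, with an annotated gene at chrX:23169067-23169185, within the span of HUWE1. It was at 657 ± 74.3 CPM in LL, 1123 ± 351 in DP and 701 ± 75.4 in LG (SD, n = 3). Its log2 fold change was 0.77 in DP vs. LL (SE 0.25, adjusted p = 0.0407, edgeR) and 0.68 in DP vs. LG (SE 0.25, adjusted p = 0.0569), and its ratio to chi-let-7f-5p overlapped between all stages. chi-miR-202-5p, from the precursor of another relative of let-7, was barely present, at 1.56 ± 0.403, 1.27 ± 0.540 and 1.29 ± 0.0769 CPM, with no comparison past the threshold.

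Of the miRNAs known as cluster partners of let-7 in mammals, MIR99A, MIR125B and MIR99B lie near a member's gene in this assembly, MIR100 on chromosome 15 does not, and chi-miR-125a-5p was matched to no locus. chi-miR-99a-5p, chi-miR-99b-5p, chi-miR-100-5p, chi-miR-125a-5p and chi-miR-125b-5p all had an adjusted p under 0.05 in both comparisons with DP, with log2 fold changes from 1.49 to 2.29 in DP vs. LG and from 1.36 to 2.01 in DP vs. LL. Of all tested miRNAs, 23.7% were higher in DP vs. LG and 17.2% in DP vs. LL. Scaled by the let-7 5p sum, chi-miR-125b-5p stayed past the threshold in both comparisons. chi-miR-125a-5p did so in DP vs. LG alone, chi-miR-100-5p in DP vs. LL alone, and chi-miR-99a-5p and chi-miR-99b-5p in neither. chi-miR-125b-5p was at 2564 ± 593 CPM in LL, 10177 ± 1267 in DP and 2076 ± 244 in LG (SD, n = 3). The ratio of chi-let-7c-5p to chi-miR-99a-5p, encoded 644 bases away, was 0.0716, 0.0759 and 0.0644 in LL, 0.142, 0.0541 and 0.0687 in DP and 0.0990, 0.0946 and 0.0878 in LG, so that LL was below LG and DP replicate 1 above all others. The ratio of chi-let-7e-5p to chi-miR-99b-5p was 2.38 in DP replicate 1 and between 0.684 and 1.27 in the other 8 libraries. That of chi-let-7e-5p to chi-miR-125a-5p was lower in DP (0.475, 0.409 and 0.322) and in LL (0.504, 0.307 and 0.449) than in LG (0.613, 0.601 and 0.753).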

How the data were processed

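Small RNA of mammary gland tissue (18 to 30 nucleotides) was sequenced from 9 goats. The authors placed the reads on the ARS1.2 assembly of the goat with miRDeep2, counted those on miRBase and predicted miRNAs with its quantifier, and deposited the raw counts of each mature miRNA. The submitters' notes list FastQC 0.11.9, cutadapt 4.2 and Bowtie 1.1.1. For LL replicate 3 the authors deposited 2 values that were not whole, so this column was read as estimated counts and rounded. Stages came from the sample labels.

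Counts were tested with edgeR 4.0.16 (glmQLFit and glmQLFTest, R 4.3.3) with TMM scaling and stage as the only term, over the 696 miRNAs that reached 0.5 CPM in 3 or more libraries. The SE was the absolute log2 fold change divided by the square root of F. Log2 CPM used a prior count of 2. The fit was tested on simulated counts with changes in both directions in randomly picked miRNAs. They were not built to mimic the fall of chi-miR-148a-3p, so they do not test the scaling against it. Alternatives were DESeq2 1.42.0, other scalings, filters, fits of 2 stages, a block for the replicate number, and fits without each library in turn. The members, the lists and the rule for named miRNAs (the members, chi-miR-148a-3p, the 3p arms, let-7 relatives and known mammalian cluster partners by name, and the 5 most alike in level) were chosen with earlier results of these data known. Of the marker lists, chi-miR-205, chi-miR-486-5p and both chi-miR-142 arms were not used here. Gene positions are those of RefSeq for ARS1.2. Libraries of a stage differed beyond sampling noise in the members' counts (chi-square per degree of freedom from 170.5 to 6631). P-values set a difference between stages against the spread between goats within stages, estimated over all stages together.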

Additional observations from a re-analysis of the deposited data

How the results depend on the processing

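In fits scaled to the library and not to the family sum, the DP vs. LG and DP vs. LL differences of the members kept their direction under each alternative run except library size scaling without chi-miR-148a-3p. There chi-let-7d-5p (−0.25) and chi-let-7f-5p (−0.14) reversed in DP vs. LG, and the median of all miRNAs turned negative as well. With that setting, 0, 1 and 0 members were differentially expressed in the DP vs. LG, DP vs. LL and LL vs. LG comparisons, and 0, 2 and 0 had an adjusted p under 0.05. In DP vs. LG, 4 members were differentially expressed in 6 of the other settings that keep all libraries. In that comparison, 5 of 8 members kept an adjusted p under 0.05 with no filter, when chi-miR-148a-3p was removed before TMM, with scaling to library size only and with at least 10 counts in every library. In DP vs. LL, 5 of 8 did with only the 2 stages compared. In LL vs. LG, 0 members did with upper quartile scaling, with chi-miR-148a-3p left out before TMM and with no filter, and 2 did with only the 2 stages compared (chi-let-7c-5p and chi-let-7d-5p, both lower in LL); with library size only, DESeq2 and at least 10 counts in every library, the 1 member was chi-let-7d-5p in place of chi-let-7i-5p. The ratio of the mean family share without chi-miR-148a-3p was 1.22 (DP to LG), 1.22 (DP to LL) and 1.00 (LL to LG).

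Leaving out 1 library at a time gave 3 to 5 differentially expressed members in DP vs. LG, 2 to 5 in DP vs. LL and 0 between LL and LG, with the fewest without DP replicate 1. Members with an adjusted p under 0.05 numbered 5 to 7 (fewest without LG replicate 2 or 3), 6 to 8 and 0 to 1. The ratio of the family share ranged from 1.57 to 2.10 (DP to LG), from 1.93 to 2.65 (DP to LL) and from 0.723 to 0.871 (LL to LG). Within the family, leaving out chi-let-7i-5p from the sum gave 1 member in DP vs. LG and 1 in LL vs. LG (chi-let-7i-5p in both). The median of ratios gave 2 in DP vs. LL (chi-let-7c-5p and chi-let-7g-5p) and 1 in LL vs. LG (chi-let-7i-5p), and only the 2 stages compared gave 2 in LL vs. LG (chi-let-7d-5p and chi-let-7i-5p). Leaving out 1 library gave 0 in DP vs. LG, 0 (without LL replicate 1) to 1 in DP vs. LL, and 0 to 2 (without DP replicate 1) in LL vs. LG. The cause of these changes was not tested.

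Each goat gave 1 library, so the replicate numbers of the labels pair no goat with itself. Deviations from the stage mean correlated from −0.10 to 0.21 between same-numbered libraries. Between differently numbered libraries they correlated from −0.23 to 0.15. Whether same-numbered libraries share anything was not tested. With a replicate block, 5, 5 and 0 members were differentially expressed, and 7, 8 and 1 had an adjusted p under 0.05, in DP vs. LG, DP vs. LL and LL vs. LG.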
